A study of Saccharomyces cerevisiae with 8 samples.

Results

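The genes described here encode subunits of the mitochondrial respiratory complexes, or proteins that assemble, express or supply them, in the budding yeast Saccharomyces cerevisiae. They were taken as the array features whose single gene symbol begins with COX, QCR, SDH, ATP, COR, COQ, CBP, CYT, RIP or PET followed by a number, and features of a gene were averaged. The rule found 63 genes (67 features) among 3127 genes with a single name, and no measured value entered it. A further 6 features carried such a symbol together with others and were left out. COX5B, the hypoxic alternative to COX5A, had no feature with its name alone and was not analysed here.

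The samples compared yap1d with wild type (WT) in 2 laboratory strain backgrounds, BY4742 (mating type alpha) and BY4741 (mating type a). yap1d lacks YAP1, the gene of a transcription factor that activates antioxidant genes. Every culture, WT included, reached an optical density of 0.5 in YPD rich medium before hydroxyurea, which blocks ribonucleotide reductase, was present at 200 mM for 2 h. On each of 4 slides, yap1d and WT RNA of 1 background were hybridised together: slides 21 and 22 carried BY4742 and slides 19 and 20 carried BY4741, with the channels exchanged within each pair and 2 columns of values per slide. Cultures without the drug are not part of the comparison, which sets genotypes side by side under hydroxyurea and does not measure the response to it.

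In respiring yeast, succinate dehydrogenase (complex II) and external and internal NADH dehydrogenases pass electrons to ubiquinone, which feeds the cytochrome bc1 complex (complex III). Cytochrome c carries them on to cytochrome c oxidase (complex IV), and the ATP synthase uses the proton gradient that results. Nuclear genes of this chain are repressed by glucose, and many are activated by the Hap2/3/4/5 complex, whose Hap4 subunit supplies the activation domain and is itself made in larger amounts when glucose runs low. Rich glucose medium is therefore a condition in which yeast mainly ferments.

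Values are log ratios of yap1d over WT. Base 2 was assumed, since no label names the base. The direction is only likely: it was taken so that the known Yap1 targets TRX2 (-1.57) and TRR1 (-0.998) came out lower in yap1d, and every sign below turns if it is wrong. YAP1 itself had no feature under its own single name, and its loss could not be read from these ratios. Both channels of a slide held 1 strain, so the ratios of the strain markers MET17 (0.043) and LYS2 (-0.0019) do not test the strain labels. A single slide also carries a channel effect of each feature, which cancels in the mean of the 2 slides of a background. That mean is the value given for a background, and errors are SDs over the 2 backgrounds (n = 2). The number of arrays limits the precision. No label states that slides came from separate cultures, so the spread between slides may be technical.

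None of the 63 genes passed limma's test of yap1d against WT at an adjusted p of 0.05 (Benjamini-Hochberg over all 6695 genes and unnamed features). Over all 6695, 1.21% were called lower and 0.538% higher in yap1d, so a count of 0 among 63 lies near the background and does not set these genes apart. At an unadjusted p under 0.05, 2 of the 63 were reached, against 7.5% of all units. A limma fit of the 4 slides with a channel term also called none of the 63, against 0.792% of all units lower and 0.299% higher, with 4 genes under an unadjusted p of 0.05, against 9.62% of all units. The median over the 63 genes was -0.0094, beside 0.0044 over all units, and 33 lay below 0. Their means ran from -0.24 to 0.22, with an SD over genes of 0.0918, beside 0.143 over all units.

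The fit gives an interval for the mean over the 2 backgrounds in each gene. A gene's own spread does not enter it, and it does not bound a change in a single background. With 1 SD common to all genes, each 95% interval was 0.212 wide on either side of its mean. The lowest bound was -0.448, for CBP3, which is a level 1.36-fold lower in yap1d. The highest was 0.433, for PET111, which is 1.35-fold higher. The intervals of 61 genes held 0, and the 2 that did not were those of CBP3 and PET111. In the fit of the 4 slides the outermost bounds over the members were -0.454 and 0.431. The interval of QCR9 (SD 0.429) was -0.209 to 0.215 in the first fit and -0.308 to 0.314 in that of the 4 slides.

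**Figure D1:**
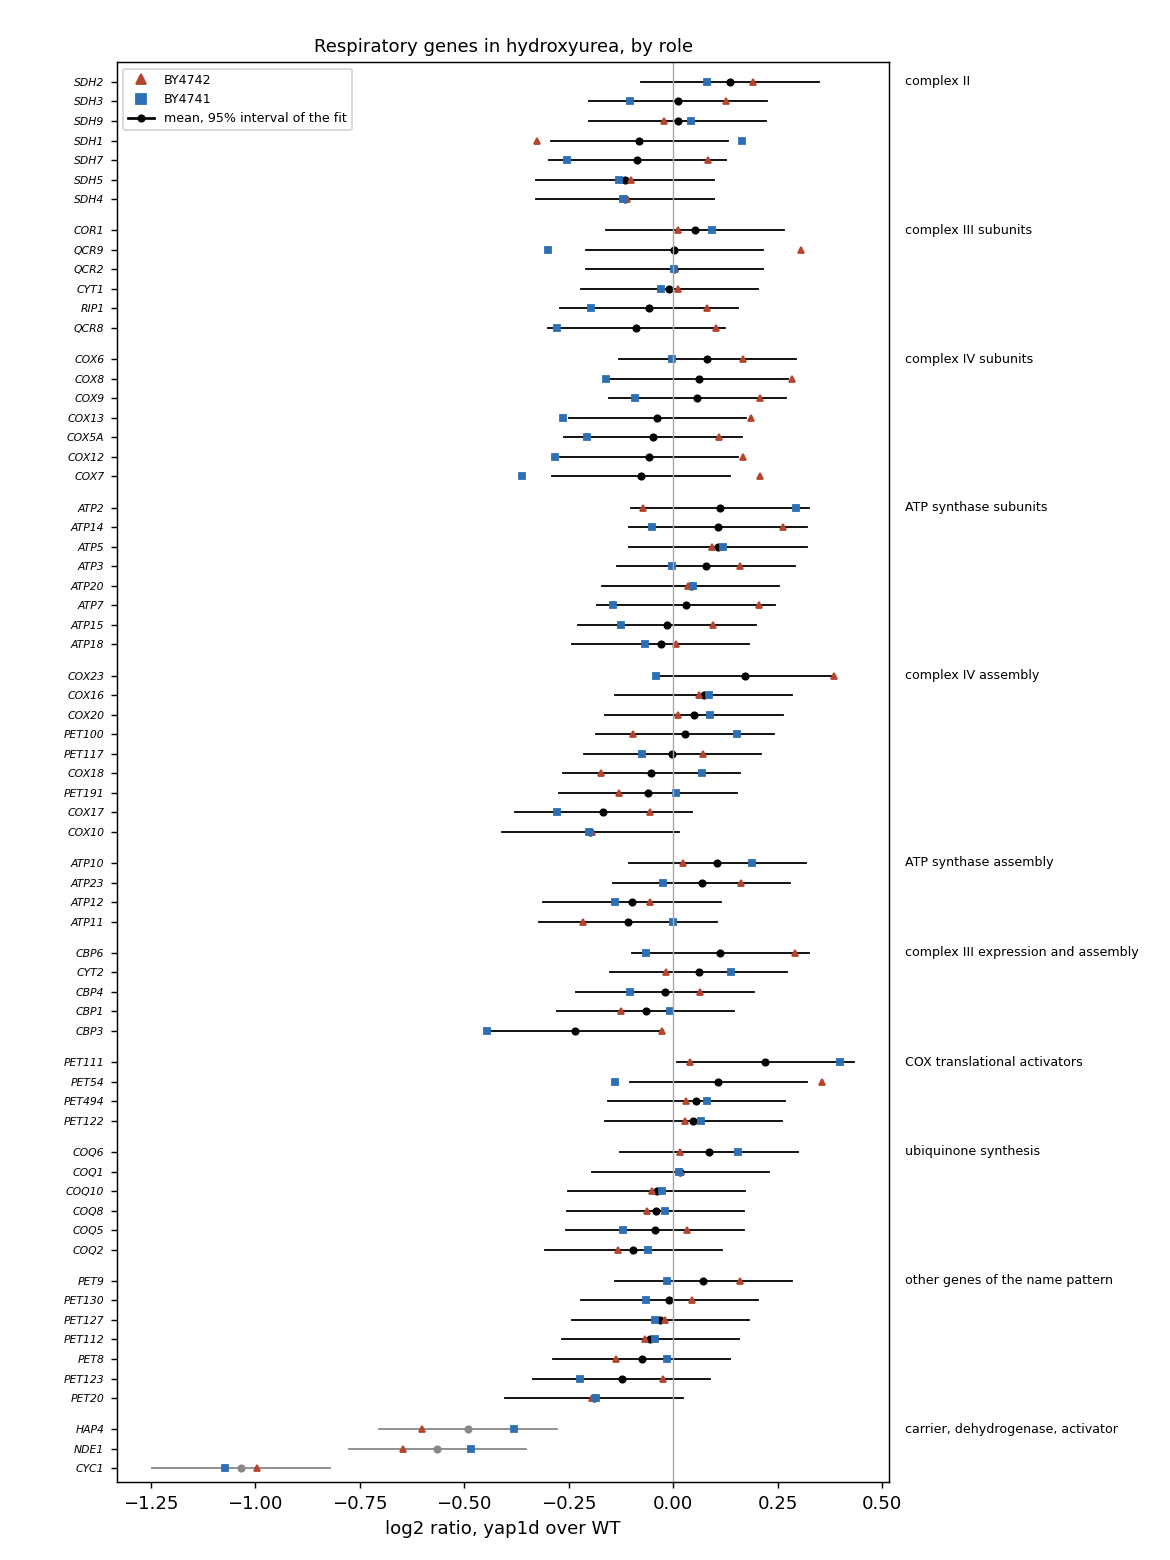
Mean log2 ratio of yap1d over WT for the 63 genes, 1 row per gene grouped by role, with the 95% interval of the fit as a line and the value in BY4742 (triangle) and BY4741 (square). The grey rows at the bottom are HAP4, NDE1 and CYC1, whose means of -0.49, -0.56 and -1.03 lie left of all 63 members, which range between -0.24 and 0.22.

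CBP3 and PET111 lay at the ends of the range. CBP3, which acts in the synthesis of cytochrome b and the assembly of complex III, read 0.94 on slide 21 and -0.995 on slide 22 (BY4742), and 0.55 on slide 19 and -1.44 on slide 20 (BY4741). Its slides thus followed the channel more than the genotype, with a channel effect of 0.98, the largest among the members. Its mean was -0.24 ± 0.296 (limma adjusted p = 0.511), made up of -0.026 in BY4742 and -0.44 in BY4741. PET111, the translational activator of the mitochondrial COX2 message, read -0.45 and 0.53 in BY4742 and -0.22 and 1.02 in BY4741. Its mean was 0.22 ± 0.254 (adjusted p = 0.614), with 0.041 in BY4742 and 0.40 in BY4741. It was at 0.020 once print block medians were removed, at 0.097 without slide 20 and at 0.34 without slide 22, while CBP3 ran from -0.12 with columns brought to the same spread to -0.35 without slide 22.

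Among the 7 complex II genes, 4 had means below 0 and 3 above, and the median was -0.081. SDH2, the iron-sulfur subunit, had the highest mean (0.14 ± 0.0787) and SDH5, needed for flavin attachment to the flavoprotein subunit, one of the lowest (-0.12 ± 0.0203). With print block medians removed SDH2 was at -0.030, and without slide 22 at 0.029. SDH1, the flavoprotein subunit, was at -0.33 in BY4742 and 0.16 in BY4741. Its paralogue SDH9 had a mean of 0.011. None passed the test.

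Complex III was represented by 6 subunit genes with means between -0.088 and 0.052. The largest in size were those of QCR8 (-0.088 ± 0.268) and RIP1, the Rieske iron-sulfur protein (-0.058 ± 0.197). QCR2, one of the core proteins, lay at 0.0038 in BY4742 and 0.0025 in BY4741. Of the 5 genes for expression and assembly of the complex, CBP6, which acts with CBP3 on cytochrome b synthesis, had a mean of 0.11 ± 0.252. CYT2, the haem lyase of cytochrome c1, lay at 0.061 ± 0.109. Print block removal turned CBP6 to -0.052 and RIP1 to 0.024.

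The 7 measured subunits of complex IV had means between -0.077 (COX7) and 0.082 (COX6), with a median of -0.038. COX5A, the aerobic isoform of subunit V, had a mean of -0.048 ± 0.222. COX6 was at -0.078 with print block medians removed, and COX7 at 0.018 without slide 19 and 0.11 without slide 20. The 9 assembly genes of the complex spread more widely, over an SD of 0.117 across genes, beside 0.067 for the subunits. COX10, which makes the haem A precursor, lay at -0.20 ± 0.00619, with -0.19 in BY4742 and -0.20 in BY4741 (adjusted p = 0.731). Its single slides lay far apart, at 0.49 and -0.875 in BY4742 and 0.58 and -0.985 in BY4741, with a channel effect of 0.73. COX17, a copper chaperone, read -0.062 and -0.050 in BY4742 and -0.34 and -0.22 in BY4741. All 4 slides were below 0, as were those of SDH5 in complex II, and the share over all units is not given here. The mean of COX17 was -0.17 ± 0.156 (adjusted p = 0.893). COX23, a protein related to Cox17, lay at 0.17 ± 0.300, with 0.38 in BY4742 and -0.040 in BY4741, and at -0.035 without slide 21. The 4 measured translational activators of mitochondrial COX messages all had means above 0, from 0.048 (PET122) to 0.22 (PET111), and none passed. Of all 6695 units, 3459 had means above 0. PET54, an activator of the COX3 message, lay between PET122 and PET111 at 0.11 ± 0.351, and at -0.071 without slide 22.

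ATP synthase subunits had 6 of 8 means above 0, with a median of 0.060. The highest were ATP2, the catalytic beta subunit (0.11 ± 0.259), and ATP5, a stalk subunit (0.11 ± 0.0186), which was at 0.0081 with print block medians removed. ATP18, measured by 3 features, ranged over them from -0.089 to 0.063, which gives the spread between features of the same gene. The 2 features of COQ2 lay at -0.046 and -0.15, and those of PET130 at -0.0081 and -0.011. Among the assembly genes of the synthase, ATP11 (-0.11 ± 0.153) and ATP10 (0.11 ± 0.116) had the largest means in size. The 6 ubiquinone synthesis genes stayed between -0.096 (COQ2) and 0.086 (COQ6). Of the 7 other genes that the name pattern took in, 6 had means below 0. They included PET20 (-0.19 ± 0.00619), which is needed for respiratory growth, and PET123, a mitochondrial ribosomal protein (-0.12 ± 0.141). The single slides of PET20 read -0.31 and -0.080 in BY4742 and -0.52 and 0.15 in BY4741. PET9, the major ADP/ATP carrier of the inner membrane, lay at 0.072 ± 0.123. None of the genes in this paragraph passed the test.

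Further genes of respiration that the name pattern does not take in were read from a list of 46, of which 26 were measured. Of these 3 fell in yap1d, none rose and 23 did not pass, beside 1.21% lower and 0.538% higher over all units, and their median was -0.045. The list was drawn up with earlier results of these data known, among them those of CYC1 and NDE1, so its count is no independent evidence. CYC1 is the gene of iso-1-cytochrome c, the carrier between complexes III and IV. It read -0.63 and -1.36 in BY4742 and -0.68 and -1.46 in BY4741. All 4 slides were thus well below 0, and the mean of -1.03 ± 0.0539 had an adjusted p of 9.3e-19 in limma. Its 95% interval was -1.25 to -0.82, and the lowest bound among the 63 members was -0.448. The 5th percentile of the means of all units was -0.186, so this gap is not particular to the members.

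NDE1, the main external NADH dehydrogenase, read -0.13 and -1.16 in BY4742 and -0.045 and -0.92 in BY4741, also below 0 on every slide. Its mean was -0.56 ± 0.116 (limma adjusted p = 3.03e-05). HAP4, the activating subunit of the Hap2/3/4/5 complex, read 0.18 and -1.38 in BY4742 and 0.48 and -1.24 in BY4741, so its sign followed the channel. With the channel effect cancelled it fell by 0.60 in BY4742 and by 0.38 in BY4741. Its mean was -0.49 ± 0.156 (limma adjusted p = 6.72e-04), which is 1.41-fold lower in yap1d. HAP2 (-0.048 ± 0.125), HAP3 (0.019 ± 0.0575) and HAP5 (-0.0044 ± 0.0451), the DNA-binding subunits, were not called.

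The fit of the 4 slides gave adjusted p-values of 2.93e-05 for CYC1, 0.00470 for NDE1 and 0.0169 for HAP4. All 3 calls were lost without slide 19 or slide 21 and kept without slide 20 or slide 22. The prior of the variance took 3.47 degrees of freedom without slide 19 or slide 21 and infinite ones without slide 20 or slide 22. The part of the prior in the lost calls was not tested. Without slides 19, 20, 21 and 22 in turn, CYC1 was at -1.02, -1.01, -1.05 and -1.06. NDE1 was at -0.58, -0.63, -0.54 and -0.50, and HAP4 at -0.57, -0.53, -0.42 and -0.46. When columns were brought to the same spread the adjusted p was 0.0905 for NDE1 and 0.25 for HAP4, while CYC1 passed (0.00278). The other cytochrome c gene, the hypoxic isoform CYC7, had a mean of -0.14 ± 0.151 and the internal NADH dehydrogenase gene NDI1 one of -0.11 ± 0.0186. The highest of the 26 was SCO2, which is related to a copper delivery protein of complex IV (0.25 ± 0.130, adjusted p = 0.423).

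**Figure D2:**
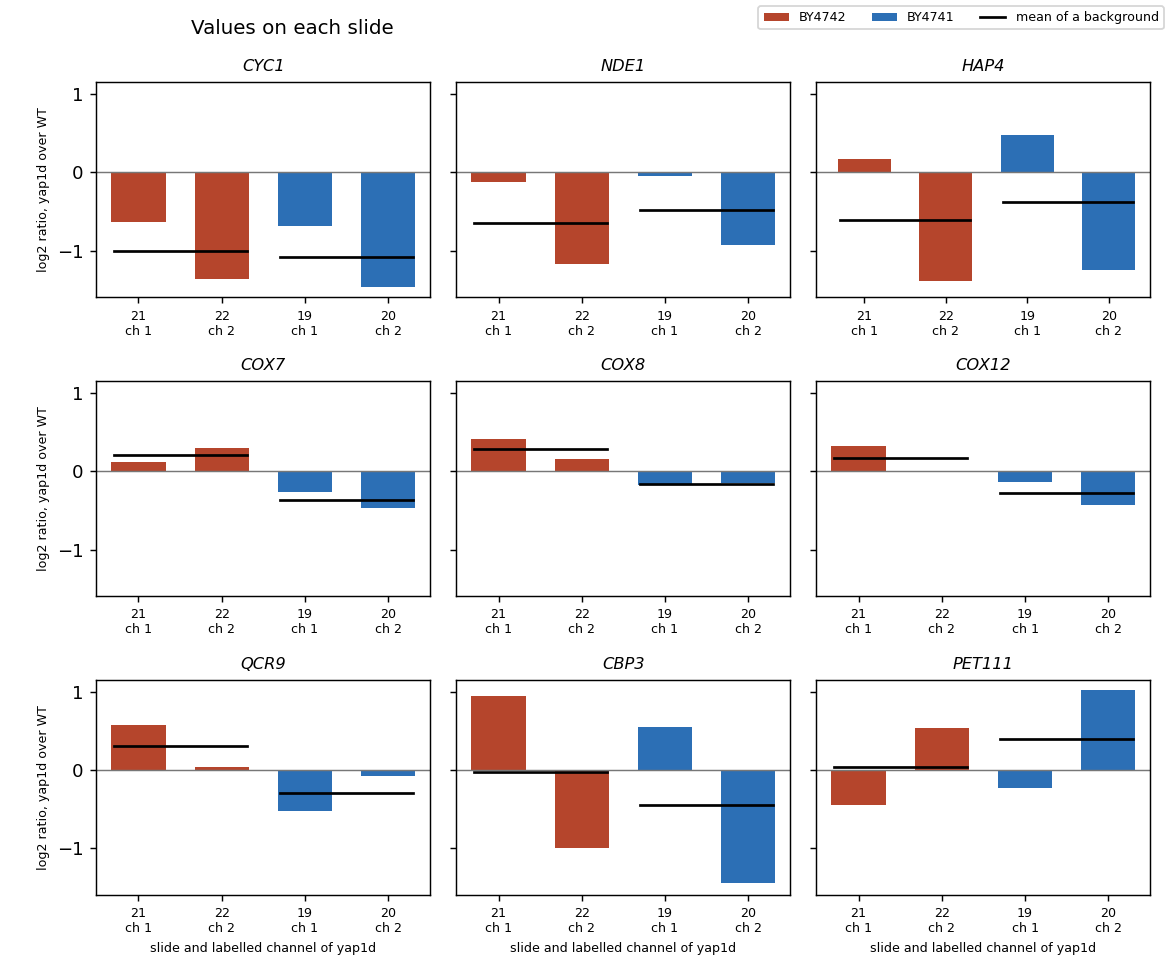
Log2 ratio of yap1d over WT on each of the 4 slides for 9 genes, with bars coloured by strain background, the labelled channel of yap1d under each bar, and a black line at the mean of a background. CYC1 is below 0 on all 4 slides, while COX7, COX8, COX12 and QCR9 are above 0 on both BY4742 slides and below 0 on both BY4741 slides. In HAP4, CBP3 and PET111 the sign changes with the channel.

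The channel effect is the mean of the 2 orientations before turning. It passed limma's test in 43 of the 63 genes, against 67.5% of all units, 29 of them positive and 14 negative. Members ranged from -0.85 (COX6) to 0.98 (CBP3), with PET9 at 0.94. COX6, a subunit of complex IV, read -0.68 and 1.01 in BY4742 and -0.86 and 0.86 in BY4741, so each single slide lay at least 0.68 from 0, in a direction set by the channel. Averaged over exchanged channels it came to 0.17 in BY4742 and -0.0025 in BY4741.

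The effect of yap1d was then compared between BY4742 and BY4741. Each background had its own pair of slides, so a difference between backgrounds cannot be told apart from one between slide pairs. The SE of a difference comes from slides and may not hold the variation between cultures. It is drawn by limma towards a value shared by all genes, so it is not a gene's own error alone. Over the members it ran from 0.13 to 0.213. Subunit genes of complex IV lay above 0 in BY4742 and at or below 0 in BY4741. Of the 6 complex III subunits, 6 were above 0 in BY4742 and 4 below 0 in BY4741. Of the 8 ATP synthase subunits, 7 were above 0 in BY4742 and 5 below 0 in BY4741. No member passed the limma test of the difference, and no unit of the whole array did (0% of 6695). At an unadjusted p under 0.05 the difference was reached by 15 of the 63 members, 12 of them with the higher value in BY4742. Over all units that share was 11.5%, and 5.81% with the higher value in BY4742.

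All 7 complex IV subunits had values above 0 in BY4742 (0.11 to 0.28), against values below 0 in BY4741 (-0.36 to -0.0025), where COX6 was at 0 within its error. Their median was 0.19 in BY4742, against -0.20 in BY4741. COX7 showed the largest difference of the 7, with 0.12 and 0.30 on the BY4742 slides, against -0.26 and -0.46 on the BY4741 slides. The difference of 0.57 ± 0.146 (SE, 4 slides) had an adjusted p of 0.301. COX12 read 0.33 and 0.0050 in BY4742, against -0.14 and -0.43 in BY4741, and COX8 read 0.41 and 0.16 in BY4742, against -0.18 and -0.14 in BY4741. COX13 differed by 0.45 ± 0.135, COX5A by 0.31 ± 0.130, COX9 by 0.30 ± 0.136 and COX6 by 0.17 ± 0.130, and none of these passed (adjusted p between 0.318 and 0.617 with COX12 and COX8 included). With QCR9 of complex III, 4 members were thus above 0 on both BY4742 slides and below 0 on both BY4741 slides, as were 1.6% of all units. None showed the reverse, which 1.64% of all units did.

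In complex III, QCR9, a small subunit, read 0.57 and 0.040 on the BY4742 slides, against -0.52 and -0.075 on the BY4741 slides. Its difference of 0.61 ± 0.213 was the largest of all 63 members (adjusted p = 0.358). QCR8 (0.38) and RIP1 (0.28) lay on the same side, CYT1 (0.041) and QCR2 (0.0013) near 0, and COR1 at -0.081. Among the 8 ATP synthase subunits the difference was above 0 in 5, which is 62.5%, beside 54.6% of all units, and their median was 0.095 in BY4742, against -0.026 in BY4741. ATP7 (0.35) and ATP14 (0.31) were higher in BY4742, and ATP2 was lower by 0.37, at -0.071 in BY4742, against 0.30 in BY4741.

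Over the 21 subunit genes of complexes III, IV and the ATP synthase, 17 had a higher value in BY4742, with a median difference of 0.28. These were 7 of 7 in complex IV, 5 of 6 in complex III and 5 of 8 in the ATP synthase, with median differences of 0.44, 0.16 and 0.12. Over the other 42 members 21 did, with a median of -0.0025, and over all units 54.6% did, with a median of 0.024. The 7 complex II genes are among those 42, with 5 higher in BY4742 and a median difference of 0.029. In BY4742 20 of the 21 subunits were above 0, beside 3599 of all 6695 units, and in BY4741 16 of the 21 were below 0, beside 3388 of all units. Outside these subunits the differences of largest size were those of PET54 (0.50 ± 0.150) and SDH1 (-0.49 ± 0.140). Across the 63 members the values of the 2 backgrounds correlated at r = -0.252, and across all units at 0.271. This is a description over genes measured on the same slides.

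**Figure D3:**
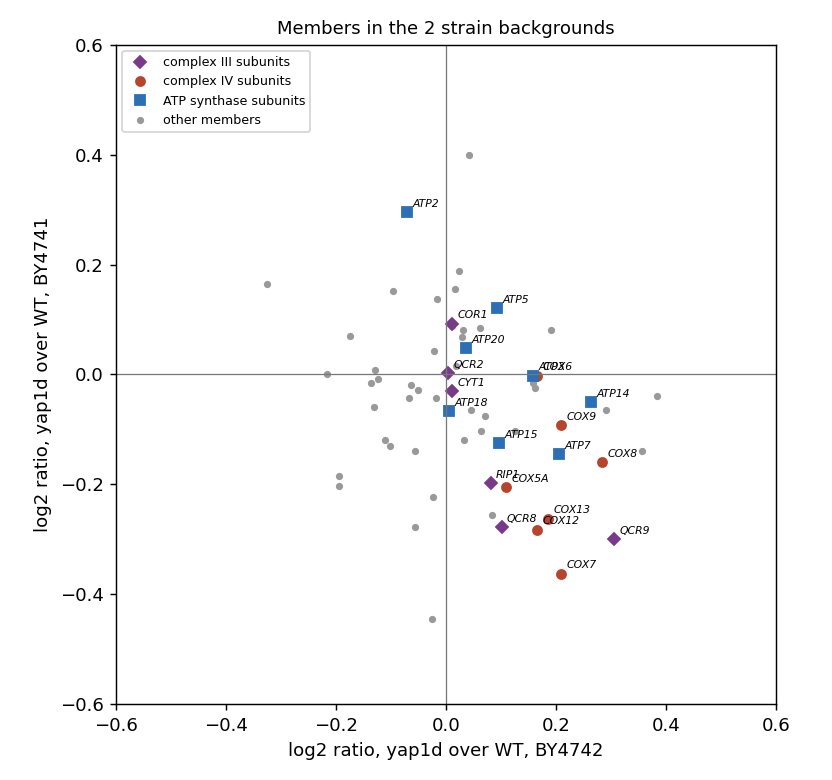
Log2 ratio of yap1d over WT in BY4742 (horizontal) against BY4741 (vertical), 1 point per gene, with subunits of complex III, complex IV and the ATP synthase marked and other members in grey. The 7 complex IV subunits lie in the lower right, above 0 in BY4742 and at or below 0 in BY4741, while ATP2 lies in the upper left.

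Ribosomal protein genes were set beside the subunits. Of the 47 measured cytosolic ribosomal protein genes, 18 were above 0 in BY4742 and 44 below 0 in BY4741. They had a median difference of 0.20, with 37 higher in BY4742, and a median channel effect of 0.60, beside 0.27 for the 21 subunits and 0.0094 for all units. The 40 mitochondrial ribosomal protein genes had a median difference of 0.058, with 23 higher in BY4742, and a median channel effect of 0.016. At an unadjusted p under 0.05 in limma, the difference was reached by 34% of the cytosolic genes, all higher in BY4742, and 10% of the mitochondrial ones. That share was 23.8% of the 63 members and 11.5% of all units. Over all units the difference and the channel effect correlated at r = -0.194. The part of the channel effect in the difference was not tested.

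With print block medians removed, the median difference of the 21 subunits was 0.21, and 15 were higher in BY4742. The median was 0.30 in the fort columns alone, with 16 higher, and 0.25 in the faible columns alone, with 17 higher. Without slide 19 or slide 21, which by construction leave the same contrast, it was 0.21 with 18 higher. Without slide 20 or slide 22 it was 0.19 with 15 higher.

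**Figure D4:**
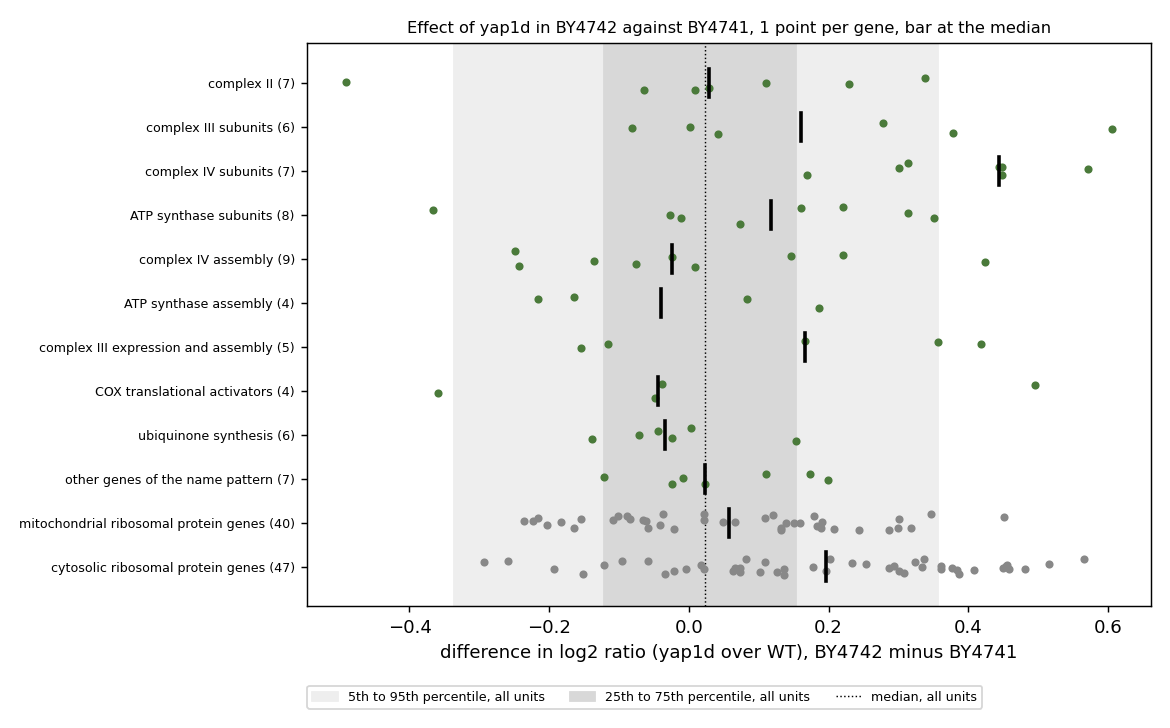
Difference in the log2 ratio of yap1d over WT, BY4742 minus BY4741, with 1 point per gene (vertical position within a row is random), a black bar at the median of each group and the number of genes in brackets. The grey bands hold the 5th to 95th and the 25th to 75th percentile of all 6695 units. The complex IV subunits have a median of 0.44 and the cytosolic ribosomal protein genes one of 0.20, beside 0.024 for all units.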

How the data were processed

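Two-colour yeast slides were analysed, with 8 columns of 6912 features (4 slides with a fort and a faible column each, treated as 2 scans). The authors deposited log ratios of unstated base, which were read as log2. The base, the channel on top, background correction and normalization are not given in the sources used here, and no build is named, so no positions are given. Total RNA was labelled indirectly, per the labels' protocols. Column medians ran from -0.28 to 0.04. Slides of the same channel orientation correlated at 0.85 and 0.862, those of opposite orientation at 0.761 to 0.812.

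Columns were centred on their medians, scans averaged, ratios turned to yap1d over WT by the labelled channel, features of a gene averaged and the 2 slides of a background averaged. Genes were named through the array annotation: 3344 features had 1 symbol (3343 matched to the R64 reference table), 387 had several and 3181 were unnamed here. An intercept was fitted over the 2 backgrounds with lmFit and eBayes (limma 3.58.1, R 4.3.3), two-sided, adjusted by Benjamini-Hochberg over 6695 units. The prior of its variance took infinite degrees of freedom, so its p-values and intervals rest on 1 SD of 0.153 for all genes. The difference between backgrounds and the channel effect were fitted on 4 slides with a channel term. The fits were run on simulated data with 1 noise SD for all genes and no difference between backgrounds. Those data cannot show whether the p-values hold where the spread differs between genes. Members and lists were chosen with earlier results of these data known, and the cytosolic ribosomal protein genes were added after the values were seen. Named were the highest and lowest members, the 2 largest in size of each role, the largest strain and channel effects, and further genes that passed. COX8, COX12 and the other subunits described between backgrounds, and further role examples, were named after their values were seen. Promoter motifs were not searched. Alternatives varied the scan, centring, scaling, units, filter, threshold, prior and slides used. Figures were drawn with matplotlib 3.10.9.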

Additional observations from a re-analysis of the deposited data

Results flagged for a closer look

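In 4 of the 63 members both slides of a background went one way and both slides of the other background the opposite way, against 1.6% of all units with BY4742 above and BY4741 below 0 (1.64% with the reverse, which no member showed). All 4 are small subunits of complexes III and IV, with differences, BY4742 minus BY4741, of 0.61 for QCR9, 0.57 for COX7, 0.45 for COX12 and 0.44 for COX8. In the limma test of the difference their adjusted p-values were 0.358, 0.301, 0.318 and 0.330, so none passed. COX12 meets the description by a margin of 0.0050 on slide 22. With channels exchanged, the pattern also requires a channel effect that is small beside the values of the backgrounds. That effect was 0.021 for QCR9, 0.0056 for COX7, 0.15 for COX12 and 0.057 for COX8. COX13, with a difference of 0.45 and a channel effect of 0.34, does not meet the description.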

How the results depend on the processing

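No member was called lower or higher in yap1d with fort or faible columns alone, uncentred values, quantile normalization, print block medians removed, equal spread, features read as 0 left out (57 members left), separate features, a threshold of 0.1, the 4-slide fit, robust eBayes, named units only, or any 1 slide left out. Left unturned by channel, which turns the test into one of the channel effect, 16 were lower and 29 higher. The median of the members moved to 0.046 in uncentred values, where all units lay at 0.060, and to 0.13 with unturned columns. Leaving out a slide gave medians of -0.028 to 0.031. The count of members differing between backgrounds was 4 in the faible columns alone, QCR9, COX7, CBP3 and PET54 (2.64% of all units were called there), and 0 under the other settings run. It cannot be tested without a slide, since no residual degrees of freedom are left. For NDE1 and HAP4 quantile normalization also ended the call (adjusted p = 0.0954 and 0.234). Of the single genes named under these settings, 404 values kept direction and call, 10 lost the call, and 21 uncalled ones changed sign. Each slide ratio pairs yap1d with WT. Values could not be paired between the backgrounds, which share no replicate number. Depth is not known for these ratios, and 6 members read exactly 0 in some column.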
